A study of Mus musculus with 13 samples.

Results

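The array used in this study carries probes for long intergenic non-coding RNA (lincRNA) regions, each named by an interval of the mouse genome in the mm9 assembly and by a letter, F or R, taken here for the strand. All probes whose name gives an interval on chromosome 4 were taken: 1041 probes for 294 region names, out of 16194 probes for 4610 lincRNA regions and 55681 probes of every kind. The 294 names cover 220 intervals, 74 of them on both strands, from 125 to 317849 bases long (median 11897), with 1 to 10 probes for a region. Chromosome 4 also carries the floxed genes Kdm4c and Kdm4a, and 55 of the 294 regions (219 probes) lie wholly in chr4:74000000-118000000, a window set around these genes. The names were read as annotation only. Neither the transcripts nor the probe sequences behind them were examined here.

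LincRNAs are transcripts that are spliced and polyadenylated much like messenger RNAs but encode no known protein. Most are made at low levels and in few cell types, and in embryonic stem cells many come from intervals marked by chromatin of active promoters and transcribed bodies. Kdm4a, Kdm4b and Kdm4c (also called Jmjd2a, Jmjd2b and Jmjd2c) are enzymes that remove methyl groups from lysine 9 of histone H3, a mark of silent chromatin, and in part from lysine 36.

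RNA came from 6 mouse embryonic stem cell (ESC) lines derived from C57Bl/6 mice, compared with and without 4-hydroxytamoxifen (OHT), which activates the Cre recombinase that every line carries (Rosa26::CreERT2). Of these, cl4, cl5 and cl6 are Jmjd2a(f/f);Jmjd2c(f/f), called 2ac. The remaining lines, cl280.4 with cl324.9 and cl324.13, additionally carry Jmjd2b(f/f) and are called 2abc. Treated cells received 500 nM OHT for 12 days and were harvested 6 days later, and control cells of the same line had no OHT. Culture was on gelatin, in N2B27 without serum, to which LIF, the MEK inhibitor PD0325901 and a GSK3 inhibitor were added. Each line gave 1 control and 1 OHT sample, so 4 groups of 3 samples were compared, and OHT cells of cl4 were hybridised on 2 arrays that were averaged. No control here received OHT without floxed alleles, so effects of OHT or of Cre cannot be told apart from those of the deletion, and fewer cells of a type cannot be told apart from less RNA per cell.

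Levels are given as log2 of the processed signal minus the 75th percentile of that array, so that 0 is the 75th percentile, and a change is the OHT level minus the control level of the same line. The deleted genes were lower as labelled: Kdm4c signal after OHT was 13.4% of control in 2ac and 10.8% in 2abc, the Kdm4a probe measured on all arrays was at 59.8% and 62.8%, and Kdm4b was at 109% in 2ac and 21.4% in 2abc. Whether these probes lie in the deleted parts was not examined. All 10 markers of naive ESCs were well above background on all 13 arrays, whereas of 10 fibroblast markers 3 were so on all arrays and 3 on 0. Of 6 markers of differentiated neural cells, 6 had higher group means with OHT in each genotype, among them Neurod1 at -3.43 and -0.42 in control and OHT cells of 2ac and at -2.73 and 0.04 in 2abc. On the log2 scale the summed level of these 6 ran from 2.78 to 2.99 in control and 3.57 to 3.75 in OHT cells of 2ac, and from 2.43 to 2.89 and 3.31 to 3.48 in 2abc, so the groups do not overlap. The sum over 6 primitive endoderm markers ran from 8.29 to 8.33 and 7.71 to 8.08 in 2ac and from 8.27 to 8.4 and 7.92 to 8.22 in 2abc, lower with OHT. Sparc made up most of this sum, with group means of 8.24 and 7.81 in 2ac and 8.27 and 7.97 in 2abc. The naive ESC sum was lower too, with 8.93 to 9.04 against 8.70 to 8.85 and 8.93 to 8.99 against 8.79 to 8.84. The fibroblast sum overlapped in 2ac (0.60 to 0.96 and 0.85 to 2.24). In 2abc it was lower with OHT (1.17 to 1.42 and 0.84 to 1.15). The sum of 5 matched blood markers was lower in both genotypes. It ran from 2.57 to 2.73 and 1.97 to 2.36 in 2ac and from 2.58 to 2.88 and 1.64 to 2.25 in 2abc. Group means of Cd3e were 2.59 and 2.08 in 2ac and 2.73 and 1.86 in 2abc, close to the sum of all 5. Of 10 fibroblast markers 9 had higher group means with OHT in 2ac and 3 in 2abc, and of 5 blood markers 3 and 1. The 9 include Col5a2, Postn and Dcn, well above background on 0 arrays, and Lum and Fap, on 1 array each. Of 10 naive ESC markers 4 and 3 were higher, and of 6 primitive endoderm markers 1 in each genotype. That marker was Gata6, at -3.72 and -3 in control and OHT cells of 2ac and at -3.4 and -2.53 in 2abc. The part of these markers in the results on chromosome 4 was not tested. The 75th percentile of the signal lay between 408.8 and 521.3 units, and no spot was saturated. An alternative background correction, normexp with an offset of 50 units, was added after seeing the data. The offset makes log2 changes of dim probes smaller by construction. Values under normexp are given beside printed called changes that it moved by over 1.5 times, in the comparison for which a probe was named.

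Fewer of the chromosome 4 lincRNA probes than of all probes were well above background. On single arrays 33.2% to 55.0% of them were well above background, against 50.1% to 63.9% of all probes. Of the 1041 probes, 286 were so on all 13 arrays, 466 on 1 to 12 arrays and 289 on 0. The 429 probes (41.2%) that passed on every array of at least 1 group were tested, in 207 of the 294 regions. The same share was 32.2% for the lincRNA regions of chromosome 3, 38.0% for those of the other chromosomes and 55.1% for the whole array. Inside the window 63 of 219 probes (28.8%) were tested, in 33 of 55 regions, and outside it 366 of 822 (44.5%), in 174 regions. The window therefore gives the fewer measured regions, and the 612 probes left out carry no statement on change.

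In the 2ac lines, few of these regions changed with OHT. In the limma fit, with Benjamini-Hochberg adjustment over all tested probes, 19 of 429 probes (4.43%) in 14 regions passed an adjusted p of 0.05, whereas 11.1% of all 30675 tested probes passed. Of the 19, 8 were higher (5.20% of all tested probes were called higher) and 11 lower (5.88% were called lower). The lincRNA regions outside chromosomes 3 and 4 had 6.05% called and those of chromosome 3 had 3.81%. Under quantile normalisation the split was 7 higher and 17 lower, so that 29.2% rather than 42.1% of the called probes were higher. Without line cl4, and likewise without line cl5, limma called 0 of the 429 probes in 2ac, with 57 and 49 at an unadjusted p under 0.05. The same fits called only 0.779% and 0.482% of all tested probes. The alternatives that kept every line called 8 to 33.

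In the 2abc lines, 41 probes (9.56%) in 26 regions passed, against 17.1% of all tested probes, and most of them fell. The shares called were 11.2% for the lincRNA regions outside chromosomes 3 and 4 and 11.8% for those of chromosome 3. The 41 comprised 8 higher and 33 lower probes, whereas 8.32% and 8.82% of all tested probes were called higher and lower. Of the 41, 11 were also among the 19 called in 2ac, and 0 of these 11 had opposite signs. Without line cl324.13 the count in 2abc was 7, without cl324.9 it was 13, without cl4 24 and without cl5 22. The shares of all tested probes called in these fits were 0.822%, 0.994%, 9.94% and 10.1%.

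Averaged over the 6 lines, 83 probes (19.3%) in 47 regions passed, against 28.0% of all tested probes. There were 36 higher probes, against a background of 13.8%, and 47 lower ones, against 14.3%. Of the 83 probes 66 moved the same way in all 6 lines, 25 up and 41 down. Changes were mostly below 2-fold: 1 probe was called at least 2-fold higher and 12 at least 2-fold lower. Lines cl4, cl5, cl324.9 and cl324.13 each weighed on this count, which was 46, 40, 47 and 47 without them. The shares of all tested probes called fell in these fits too, to 17.2%, 15.2%, 15.6% and 15%. The share called was 17.8% among the 286 probes measured on all arrays and 22.4% among the 143 measured on fewer.

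The fit of the difference between the genotypes, 2abc minus 2ac, called 0 of the 429 probes in limma, as it called 0.00% of all 30675. At an unadjusted p under 0.05 there were 43 of the 429, and each other fit also called 0. Changes past the threshold in 1 genotype only are therefore not shown to differ between genotypes.

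**Figure D1:**
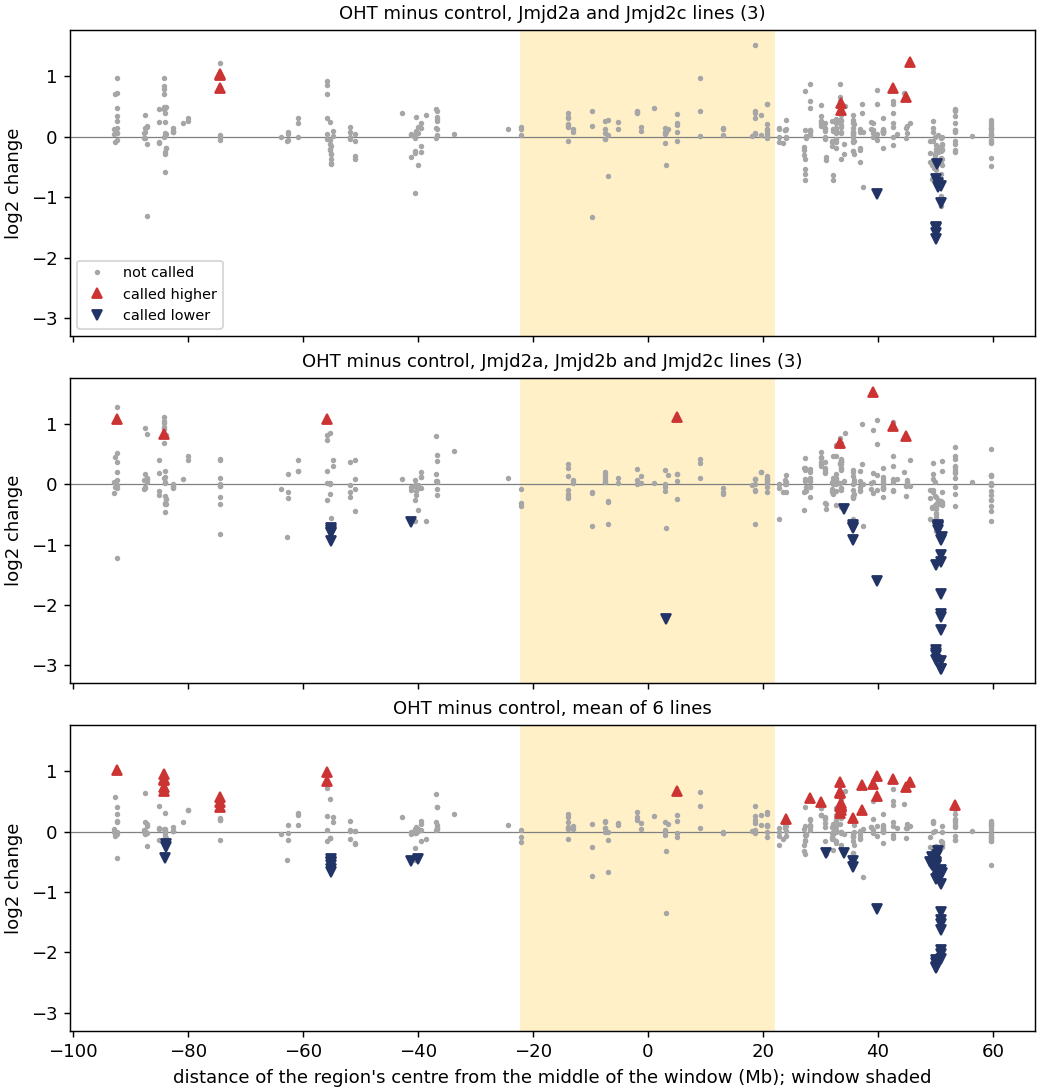
Change of each tested chromosome 4 lincRNA probe (log2, OHT minus control) against the distance of its region's centre from the middle of the window, in Mb, for the 2ac lines, the 2abc lines and the mean of 6 lines. Triangles are probes with a limma adjusted p under 0.05, the shaded band is the window, and the lowest points stand together about 50 Mb to the right of its middle.

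Regions of the window that holds Kdm4c and Kdm4a seldom passed the test. Inside it 0 of 63 probes were called in 2ac in limma (9 at an unadjusted p under 0.05), 2 in 2abc and 1 in the mean of 6 lines (1.59%). Fits under other settings called 0 to 3 in 2ac. Outside it 19, 39 and 82 of 366 probes were called, the last being 22.4%. Of all tested probes 11.1%, 17.1% and 28.0% were called in these comparisons. For the lincRNA regions outside chromosomes 3 and 4 these shares were 6.05%, 11.2% and 17.5%. Of the 35 window probes measured on all 13 arrays 1 was called in the mean, and of the 251 such probes elsewhere 50 were, 20 higher and 30 lower. A fit of only the probes measured on all arrays called 2 of the 35 and 54 of the 251 in the mean, and 32.4% of all. The median change over the 6 lines was 0.09 inside and 0.02 outside on the log2 scale, in 2ac 0.13 and 0.06, and in 2abc 0.02 and -0.00.

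The difference between these medians, inside minus outside, varied from line to line. It was 0.13 in cl4, 0.10 in cl5, 0.02 in cl6, 0.11 in cl280.4, -0.01 in cl324.9 and -0.02 in cl324.13. Thus 4 lines lay above 0 and 2 below. Between the medians of the changes fitted over all 6 lines, the difference was 0.07. This is not the mean of the 6 line values above, whose SD was 0.07 (n = 6). The fitted difference was 0.04 when the distal regions described further on were left out of the comparison. The medians of both sides followed the line: inside the window they were 0.27 in cl4, 0.31 in cl5, -0.18 in cl6, 0.17 in cl280.4, -0.15 in cl324.9 and 0.03 in cl324.13. The lincRNA regions of chromosomes other than 3 and 4 had medians of 0.20, 0.23, -0.18, 0.10, -0.12 and 0.08 in the same order, and all tested probes 0.05, 0.09, -0.09, 0.01, -0.09 and 0.01. Their part in the difference was not tested.

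**Figure D2:**
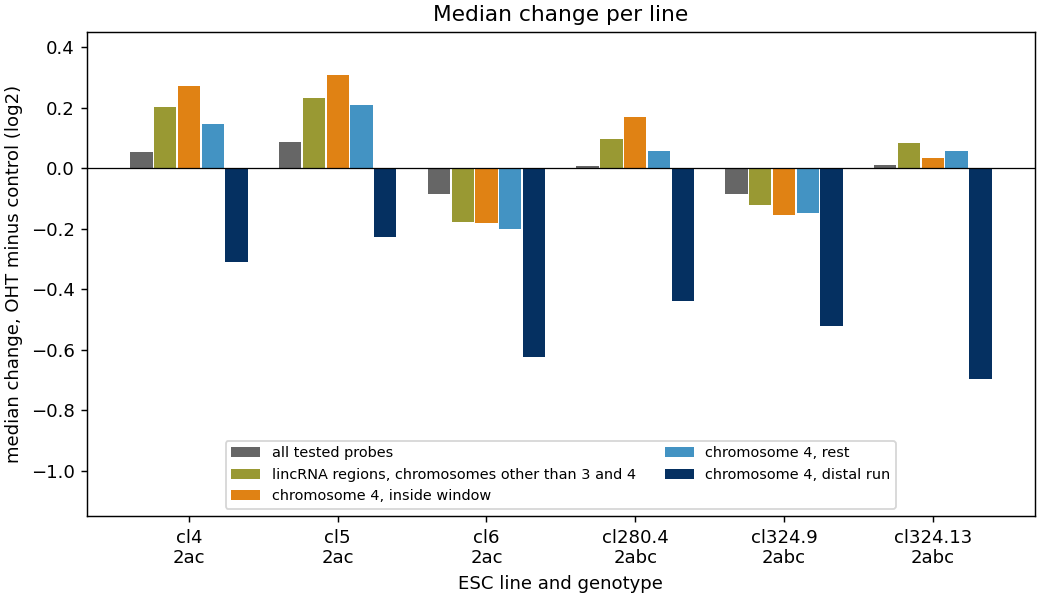
Median change (log2, OHT minus control) in each ESC line over all tested probes, lincRNA regions of chromosomes other than 3 and 4, and chromosome 4 regions inside the window, outside it and in the distal run, which is part of the outside. Bars inside and outside the window rise and fall with the other lincRNA regions, and the distal run lies below 0 in all 6 lines, from -0.70 to -0.23.

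Protein-coding and other named genes of chromosome 4 were called at close shares on both sides. By RefSeq order, 194 tested genes lie between Kdm4c and Kdm4a and 764 lie elsewhere on the chromosome. Over the 6 lines 30 of the 194 rose and 38 fell (35.1% called), and 93 of the 764 rose and 193 fell (37.4%), whereas 13.8% of all tested probes rose and 14.3% fell (28.0% called). The medians of their fitted changes were -0.02 and -0.07, a difference of 0.05. The same difference taken in each line had an SD of 0.03 (n = 6).

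The few called probes inside the window were in 2 regions. At chr4:101010948-101032148 on the R strand, the only tested probe of the region stood in control cells at -2.17, -2.31 and -2.35 (cl4, cl5, cl6) and, in 2abc, at -2.97, -3.24 and -3.19 (cl280.4, cl324.9, cl324.13). After OHT it stood at -1.60, -2.22 and -2.35 and at -2.26, -2.0 and -1.83. The 2abc groups do not overlap, whereas in 2ac cl6 did not move. The change was 0.22 (SE 0.17, limma adjusted p = 0.456) in 2ac and 1.11 (SE 0.17, adjusted p = 0.0140) in 2abc, and the 2abc call was lost without cl324.9 or cl324.13 and with the 2abc samples fitted alone, and under normexp the change was 0.55. The mean of 6 lines was 0.66 (SE 0.12, adjusted p = 0.0116).

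The other was chr4:99236190-99239702 on the F strand, where 1 probe passed in 2abc only. Its control levels were -3.36, -2.31 and -2.17 in the 2abc lines, in the order above, and its OHT levels -4.09, -5.03 and -5.42, of which 1 of 3 arrays was well above background. The change was -2.23 (SE 0.58, limma adjusted p = 0.0491), and in 2ac it was -0.47 (SE 0.58, adjusted p = 0.658). Another probe of the same region, above background on all 13 arrays, changed by -0.72 in 2abc (adjusted p = 0.0852). The first probe's change was -0.87 under normexp. Its call was lost without cl4, cl5, cl324.9 or cl324.13, under quantile normalisation, with the 2abc samples fitted alone (adjusted p = 0.0972) and with no filter on dim probes (0.124), with adjusted p from 0.0192 to 0.231 over all alternatives.

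Close to the limits of the window no probe passed. Just outside the lower limit, chr4:73870498-73881323 had 3 tested probes with mean changes of -0.17, -0.10 and 0.03. The first tested region inside, chr4:82156098-82196298, had 7 tested probes with mean changes between -0.13 and 0.28. Just inside the upper limit, both tested probes of chr4:116791819-116798263 on the R strand had mean changes of 0.29 and 0.32, with 0.53 for each in 2ac and 0.05 and 0.10 in 2abc. Just outside it, chr4:118723941-118757032 had 4 tested probes with mean changes from -0.22 to 0.06.

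The changes of largest size lay together near the far end of the chromosome. The probe with the largest called change belongs to a run of 29 regions, with no gap over 0.5 Mb between neighbours, from chr4:145000941-147183949. This run was singled out after its values were seen, so its counts are a description. It holds 79 probes, of which 53 (67.1%) in 24 regions were tested. In the mean of 6 lines 31 of the 53 fell and 0 rose (58.5%), in 2ac 10 fell and 0 rose, and in 2abc 20 fell and 0 rose, whereas 14.3%, 5.88% and 8.82% of all tested probes were called lower. The medians were -0.51, -0.42 and -0.49. Per line the median was -0.31 in cl4, -0.23 in cl5, -0.62 in cl6, -0.44 in cl280.4, -0.52 in cl324.9 and -0.70 in cl324.13. Leaving out any 1 line gave 20 to 27 probes called lower in the mean, the 20 without cl4. In 2ac the count went to 0 without cl4 or without cl5, and in 2abc to 6 without cl324.13 and 11 without cl324.9. The shares of all tested probes called were then 0.779% and 0.482% in 2ac and 0.822% and 0.994% in 2abc.

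Away from this run, the rest of the chromosome outside the window showed 35 probes higher and 16 lower in the mean of 6 lines among 313 (16.3%), with a median of 0.05. Of all tested probes 28.0% were called, 13.8% higher and 14.3% lower. The stretch between the window and the run held 23 of the 35 higher and 5 of the 16 lower calls, in 153 probes. Before the window 11 rose and 11 fell among 132 probes, and beyond the run 1 rose among 28.

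The region chr4:146017200-146029700 on the F strand had the largest mean change of the run (-2.25, A_30_P01031321), with all 4 probes called in 2ac, in 2abc and in the mean. Probe A_30_P01031321 stood in control cells at 1.33, 1.05 and 1.32 (cl4, cl5, cl6) and, in 2abc, at 1.57, 1.51 and 1.32 (cl280.4, cl324.9, cl324.13). After OHT it stood at -0.31, -0.58 and -0.18 and at -0.73, -1.69 and -1.93. Every OHT sample was below every control sample, and the OHT samples of cl324.9 and cl324.13 were the lowest. The signal left was 33.1% of control in 2ac (change -1.59, SE 0.19, limma adjusted p = 0.0107) and 13.3% in 2abc (change -2.91, SE 0.19, adjusted p = 0.00348). The mean call held under every alternative run, with adjusted p from 5.36e-05 to 0.00731, and the 2ac calls of the region were lost without cl4 or cl5.

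The other 3 probes of the region gave 2ac changes between -1.69 and -1.49 and 2abc changes between -2.82 and -2.75. All 4 were above background on all 13 arrays. On the opposite strand of the same interval 0 of 5 probes could be tested. The difference between genotypes for A_30_P01031321 was -1.32 (limma adjusted p = 0.328, unadjusted 0.00283).

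Further along, neighbouring intervals also fell. At chr4:146965675-146979325 both probes of each strand were called lower in the mean. The changes were -2.10 and -1.62 on F and -1.52 and -1.32 on R. Under normexp the -1.52, of A_30_P01031129, was -0.52. The 2abc change of this probe was -2.42 (limma adjusted p = 0.00762), with 1 of 3 OHT arrays above background, and -0.76 under normexp. Its 2abc call was lost without cl324.13 and with the 2abc samples fitted alone. Probe A_30_P01031220 (F) stood at -1.64, -2.07 and -1.69 in 2ac control cells and -2.90, -3.38 and -2.54 after OHT, and at -1.63, -1.92 and -1.88 in 2abc control cells and -3.46, -5.72 and -5.45 after OHT. The groups do not overlap in either genotype. In 2abc only 1 of 3 OHT arrays was well above background, so the change of -3.06 (SE 0.38, limma adjusted p = 0.00943) rests on levels that 2 arrays did not measure well, and under normexp it was -1.32 (-0.97 in the mean). In 2ac it was -1.14 (SE 0.38, adjusted p = 0.110). The 2abc call was lost without cl324.9 or cl324.13 and when the 2abc samples were fitted alone. In 2ac the other F probe, A_30_P01022342, was called at -1.09 (limma adjusted p = 0.035). On R, A_30_P01029444 was called at -0.82 (adjusted p = 0.0415). Both 2ac calls were lost without cl4, cl5, cl6 or cl324.13, with the slide as block and with no filter on dim probes. That of A_30_P01029444 was also lost without cl324.9 and without the replicate block.

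At chr4:146889650-146904300 on the F strand, 3 of 4 tested probes were called lower in 2abc and in the mean, and 0 in 2ac. Probe A_30_P01020616 stood at -1.91, -2.09 and -2.28 in 2abc control cells and at -3.81, -6.13 and -5.54 after OHT, again with 1 of 3 OHT arrays above background. Its change was -3.06 in 2abc (SE 0.40, limma adjusted p = 0.0103; -1.13 under normexp) and -0.99 in 2ac (SE 0.40, adjusted p = 0.173), and the 2abc call was lost without cl324.9 or cl324.13 and with the 2abc samples fitted alone. The last of the 4 probes changed by -0.16 in the mean (adjusted p = 0.351). Within this interval lies the shorter region chr4:146890596-146891297, also F, with 3 tested probes that were above background on all arrays and fell by 0.64, 0.70 and 0.87 in the mean. For A_30_P01020875 the 2abc change was -1.29 (SE 0.12, adjusted p = 0.00515), which passed under every alternative run at -0.83 under normexp, and the 2ac change was -0.44 (SE 0.12, adjusted p = 0.0677).

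A smaller fall of even size in both genotypes was measured at chr4:146507925-146532650 on the R strand. Probe A_30_P01029783 stood at 1.83, 1.52 and 1.74 in 2ac control cells and 0.68, 0.54 and 1.38 after OHT, and at 1.55, 1.84 and 1.84 in 2abc control cells and 1.1, 0.95 and 1.03 after OHT. All OHT samples were below all control samples. The change was -0.83 (SE 0.17, limma adjusted p = 0.0371) in 2ac and -0.72 (SE 0.17, adjusted p = 0.0411) in 2abc. All 5 probes of the region were called lower in the mean, from -0.78 to -0.67. The 2ac call was lost without cl4, cl5, cl324.9 or cl324.13, under median scaling, with the 2ac samples fitted alone (adjusted p = 0.0862) and with no filter on dim probes (0.105).

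Other regions of the run fell less or in part. At chr4:146156575-146175425 on the R strand 3 of 4 tested probes were called in the mean, of which A_30_P01022093 changed by -0.70 (SE 0.11, limma adjusted p = 0.0189) in 2ac, a call lost without cl4, cl5 or cl6, without the replicate block and with no filter on dim probes, and -0.33 under normexp. At chr4:146149125-146155054 on the F strand 1 of 3 tested probes was called, with -1.33 (SE 0.26, adjusted p = 0.0246) in 2abc, a call lost without cl5, cl324.9 or cl324.13, with the 2abc samples fitted alone and with no filter on dim probes, and -0.40 under normexp. Both tested probes of chr4:145450600-145461600 on the R strand fell in the mean, by 0.42 and 0.55. Probes with changes above 0 were few: 5 of 53 in the mean, among them both of chr4:145593253-145594254 on the R strand, at 0.15 and 0.17.

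Named zinc-finger genes of this end of the chromosome were examined beside the run after its values were seen. Most such genes encode DNA-binding proteins in families of near-identical copies. Znf41-ps, a pseudogene by its symbol, is counted among the 12 below and was called lower in 2ac, in 2abc and in the mean. Of 12 tested genes that lie between Tnfrsf1b and Fv1 in RefSeq order, 11 fell in the mean of 6 lines, 4 in 2ac and 8 in 2abc, whereas 14.3%, 5.88% and 8.82% of all tested probes fell. The 12 were taken by a symbol beginning with Zfp, Znf or Rex2, so genes of this stretch under other symbols are not counted. The median of the mean changes was -0.60, with Zfp985 at -1.19 and Zfp981 at -0.99. The genes were not matched to the regions by position, because the RefSeq table is of another build. Whether the probes of the regions can tell such copies apart was not tested, and their values are uncertain in that respect.

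**Figure D3:**
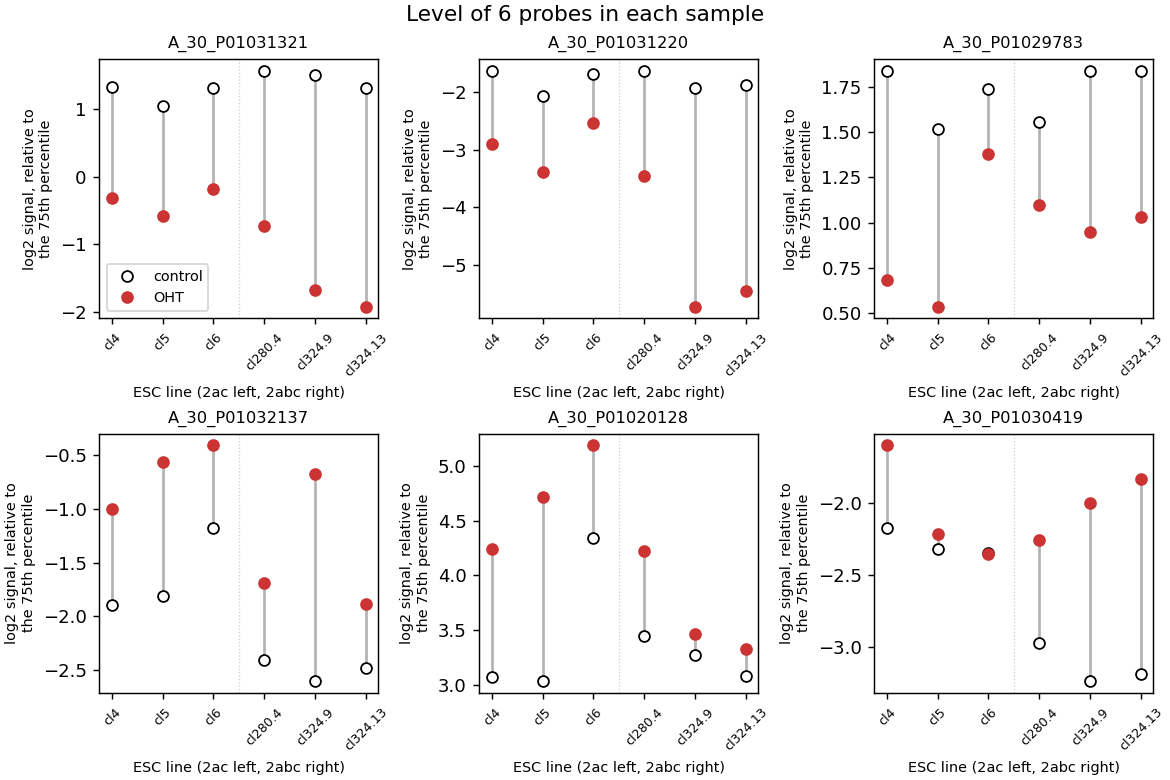
Level (log2 signal relative to the array's 75th percentile) of 6 probes in control (open) and OHT (filled) samples of each ESC line, 2ac lines to the left of the dotted line. A_30_P01031321, A_30_P01031220 and A_30_P01029783 of the distal run are lower with OHT in all 6 lines. A_30_P01032137 and A_30_P01020128 are higher in all 6, and A_30_P01030419 of the window is higher in the 3 lines of 2abc.

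A fall outside the run was measured at chr4:135896689-135918414 on the R strand, where 2 probes of the same region moved in opposite directions. Probe A_30_P01024647 stood at -1.73, -1.83 and -1.86 in 2ac control cells and -2.99, -2.59 and -2.72 after OHT, and at -1.54, -2.15 and -2.30 in 2abc control cells and -3.17, -3.91 and -3.74 after OHT. The groups do not overlap in either genotype. The changes were -0.96 (SE 0.13, limma adjusted p = 0.0128) and -1.61 (SE 0.13, adjusted p = 0.00420), with 1 of 3 OHT arrays above background in 2abc, and -0.57 and -0.88 under normexp. The 2ac call was lost without cl4 or cl5. The other tested probe of the region was called higher in the mean, at 0.59 (adjusted p = 0.0257), and 8 of its 10 probes were not tested. A second region called both ways was chr4:131734714-131741964 on the F strand, at -0.48 and 0.23.

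The region chr4:40840725-40860875 on the F strand, before the window, was called lower at all 5 of its probes. Their mean changes lay between -0.66 and -0.46. It was the only region before the window in which 2 or more probes were tested and all were called lower.

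Of the regions that rose, chr4:3752496-3752901 on the R strand had the highest called mean change. Probe A_30_P01032137 stood at -1.89, -1.81 and -1.18 in 2ac control cells and -1.0, -0.57 and -0.41 after OHT, and at -2.41, -2.60 and -2.48 in 2abc control cells and -1.69, -0.68 and -1.89 after OHT. Every line was higher with OHT, and the groups of each genotype do not overlap. The mean change was 1.02 (SE 0.19, limma adjusted p = 0.0127), a 2.03-fold rise, and without cl5 the adjusted p was 0.0512. Under normexp the change was 0.68. The other tested probe of the region changed by 1.0 (adjusted p = 0.0607).

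At chr4:40202350-40205120 on the R strand 2 of 3 tested probes rose in the mean. Probe A_30_P01032661 stood at -3.38, -2.95 and -2.46 in 2ac control cells and -2.15, -1.53 and -2.38 after OHT, and at -2.90, -3.12 and -2.92 in 2abc control cells and -1.98, -1.73 and -2.01 after OHT. The groups do not overlap in either genotype, and the smallest change was that of cl6. The mean change was 0.99 (SE 0.19, limma adjusted p = 0.0139), lost without cl4 or cl324.9 and at 0.51 under normexp, and the third probe was at 0.72 (adjusted p = 0.0538).

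The overlapping F-strand regions chr4:11899775-11931875 and chr4:11893711-11921443 gave mean changes of 0.95 (SE 0.27, limma adjusted p = 0.0484) for A_30_P01031268 and 0.87 (SE 0.18, adjusted p = 0.0184) for A_30_P01031068. All 3 probes of the second were called higher, from 0.74 to 0.87. The 2 named probes passed the filter only through the OHT cells of 2abc, where they are high, and in control cells were above background on 1 or 2 of 3 arrays, so their changes are given as a description. With no filter on dim probes both calls were lost (adjusted p = 0.112 and 0.0511), and under normexp the changes were 0.27 (adjusted p = 0.0944) and 0.26 (adjusted p = 0.0323). The first call was also lost without cl4, cl5, cl324.9 or cl324.13, and the second without cl5, cl324.9 or cl324.13.

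A rise of like size in both genotypes was measured at chr4:138657728-138687028 on the R strand. Probe A_30_P01024106 stood at -2.95, -3.14 and -2.92 in 2ac control cells and -2.21, -2.28 and -2.12 after OHT, and at -2.93, -3.39 and -3.58 in 2abc control cells and -2.45, -2.06 and -2.53 after OHT. The groups do not overlap in either genotype. The changes were 0.80 (SE 0.16, limma adjusted p = 0.0351) and 0.95 (SE 0.16, adjusted p = 0.0180). The mean of 0.88 passed under every alternative run, at 0.41 under normexp, where the 2ac change was 0.42. The 2ac call was lost without cl4, cl5, cl6 or cl324.13, under median scaling or quantile normalisation, and with no filter on dim probes. The other 2 tested probes were at 0.51 and 0.44 and did not pass.

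At chr4:141527564-141547339 on the F strand, with 1 tested probe, the 2ac lines gave the larger value. A_30_P01020128 stood at 3.08, 3.03 and 4.34 in 2ac control cells and 4.24, 4.72 and 5.19 after OHT, and at 3.45, 3.27 and 3.08 in 2abc control cells and 4.23, 3.46 and 3.33 after OHT. Each line was higher with OHT, but the groups overlap in both genotypes. The change was 1.23 (SE 0.19, limma adjusted p = 0.0187) in 2ac and 0.41 (SE 0.19, adjusted p = 0.200) in 2abc, and the adjusted p of the difference was 0.409. The 2ac call was lost without cl4 or cl5, without the replicate block and with no filter on dim probes.

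The overlapping F-strand regions chr4:21683562-21694350 and chr4:21683562-21694344 rose in 2ac. Probe A_30_P01025843 of the second stood at -3.80, -3.74 and -3.14 in 2ac control cells and -2.47, -2.70 and -2.44 after OHT, and at -2.77, -2.75 and -2.83 in 2abc control cells and -2.69, -2.85 and -2.91 after OHT. The 2ac groups do not overlap, and control cells of 2abc already stood above those of 2ac. The change was 1.02 (SE 0.13, limma adjusted p = 0.0122) in 2ac and -0.04 (SE 0.13, adjusted p = 0.886) in 2abc, with an adjusted p of 0.324 for the difference. A_30_P01022700 of the first changed by 1.03 (SE 0.18, adjusted p = 0.0240) and 0.11 (SE 0.18, adjusted p = 0.724). Both 2ac calls were lost without cl4 or cl5, and that of A_30_P01022700 also without cl6, with the 2ac samples fitted alone and with no filter on dim probes. Under normexp these changes were 0.40 for A_30_P01025843 and 0.49 for A_30_P01022700.

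At chr4:135138014-135174889 on the R strand the higher value was in 2abc. A_30_P01025907 stood at -4.56, -4.70 and -5.40 in 2abc control cells, with 1 of 3 arrays above background, and at -3.89, -3.08 and -3.11 after OHT. The change was 1.53 (SE 0.31, limma adjusted p = 0.0265), and in 2ac it was 0.06 (SE 0.31, adjusted p = 0.934). The 2abc call was lost without cl5, cl324.9 or cl324.13, under normexp (change 0.38, adjusted p = 0.0804), with the 2abc samples fitted alone and with no filter on dim probes. The second tested probe changed by 0.90 in 2abc (adjusted p = 0.306).

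**Figure D4:**
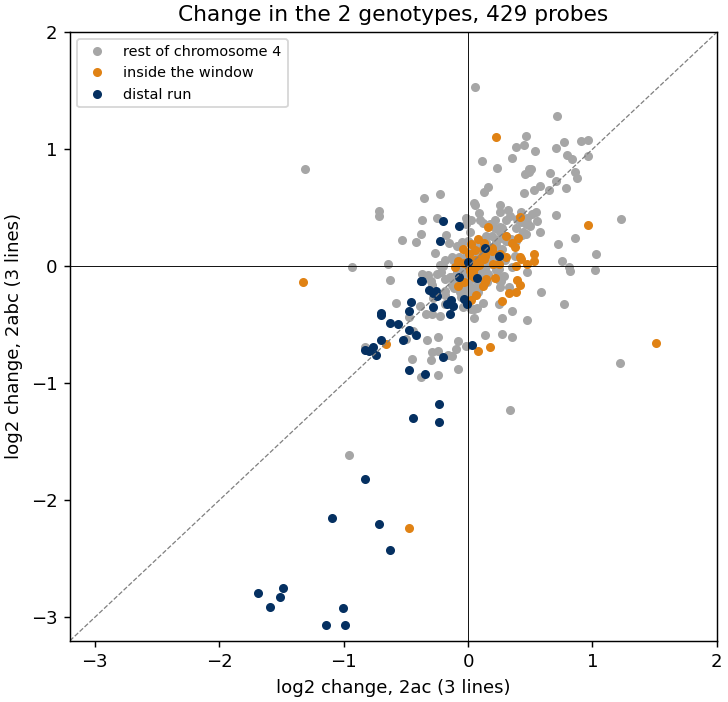
Change in 2abc against change in 2ac (log2, OHT minus control, 3 lines each) for each tested chromosome 4 lincRNA probe, with the line of equality dashed. Points of the distal run with the lowest values lie below the line, for example A_30_P01031321 at -1.59 in 2ac and -2.91 in 2abc, and 0 probes passed the test of the difference.

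The brightest regions did not pass in any comparison. The 5 tested probes with the highest control signal belong to chr4:33364774-33364898 (R), chr4:136856064-136877219 (R, 2 probes), chr4:32294119-32294941 (F) and chr4:94742359-94822969 (F), the last lying inside the window. For A_30_P01025225 of the first, control levels ranged from 6.28 to 6.48 and OHT levels from 6.29 to 6.60, which overlap, and the mean change was 0.11 (SE 0.06, limma adjusted p = 0.257). The mean changes of the other 4 lay between -0.04 and 0.06.

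Probes of the same region moved together only in part. Of 120 regions with at least 2 tested probes, 71 had all changes of the same sign in the mean of 6 lines, and the median distance between the highest and lowest change in a region was 0.24. In 11 of them every tested probe was called: 4 regions rose, among them the overlapping chr4:129376440-129391690 and chr4:129380903-129390686 on the R strand, and 7 fell, 6 of these in the distal run. The 4 include chr4:11893711-11921443 on the F strand, whose probe A_30_P01031068 passed the filter only through the OHT cells of 2abc, where it is high. Of 50 intervals tested on both strands, 32 had medians of the same sign on F and R, and the median difference between strands was 0.15. On the F strand 20 of 223 probes rose and 24 fell, and on the R strand 16 of 206 rose and 23 fell. Of all tested probes 13.8% rose and 14.3% fell. The largest differences between strands were 0.59 at chr4:101010948-101032148 and 0.56 at chr4:135138014-135174889.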

How the data were processed

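RNA of 12 ESC samples was measured on 13 single-colour Agilent arrays of 59305 spots, on 3 slides of 2, 3 and 8 arrays. The authors deposited, per the file headers, the intensity of each spot as the processed signal of Feature Extraction 11.0.1.1 (a background-corrected intensity), with mm9 region names. The authors also deposited a table of log2 values with 19371 identifiers. The submitters' processing notes name limma, without its role. By its name that table holds loess values, and no further account of its normalisation is given in the sources used. Control spots and spots with an outlier flag (184 to 253 an array) were left out. From these, log2 signal minus the array's 75th percentile was computed, and spots of a probe and the 2 arrays of cl4 with OHT were averaged (r = 0.994). The test covered probes that some group had well above background on all its arrays. It used limma 3.58.1 (R 4.3.3), with the ESC line as a paired block and all 6 lines in the fit (4 residual degrees of freedom). Adjusted p-values are Benjamini-Hochberg over 30675 probes. A probe is called at an adjusted p under 0.05. Precision is limited by 3 lines a genotype.

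Pairing follows from the lines: each gave 1 control and 1 OHT sample. The deviations of the pair correlated at 0.16, 0.43 and 0.49 in 2ac and 0.03, -0.04 and -0.02 in 2abc. Control and OHT arrays of a line shared a slide, apart from 1 of the arrays of cl4 with OHT. A region lay in the window if its whole interval did. Named were the 10 called probes with the largest change in the same direction in every line, 1 per region and strand, in each comparison, the 5 brightest, those nearest the window limits, and the other probes of these regions. Regions called at every probe, and the distal run with its genes, were named after values were seen. Gene symbols came from RefSeq accessions (GRCm38.p6, 27656 probes matched). The regions and lists were chosen with earlier results of these data known. The scripts were tested on simulated data.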

Additional observations from a re-analysis of the deposited data

Results flagged for a closer look

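At chr4:82156098-82196298 on the R strand, the first tested region inside the window, 2 probes moved up in all 3 lines of 2ac and down in all 3 lines of 2abc. The change of A_30_P01017919 in cl324.9 was only -0.013. The remaining tested probe, A_30_P01018112, rose in all 3 lines of 2abc, by 0.36, 0.08 and 0.56. In 2ac it changed by -0.19, 0.77 and -0.095 (cl4, cl5, cl6). The difference, 2abc minus 2ac, was -0.61 for A_30_P01017919 (limma adjusted p = 0.422) and -0.56 for A_30_P01030421 (adjusted p = 0.353). Neither passed the test of the difference, and neither was called in a genotype.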

How the results depend on the processing

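Under median scaling, quantile normalisation, slide as block and the second hybridisation of cl4 only, the counts of called probes stayed within 1.5 times those given. Without the replicate block (unpaired) they were 23, 50 and 72 in 2ac, 2abc and the mean of 6 lines, and the paired counts were 19, 41 and 83. Larger moves came from testing every probe (8, 20 and 46), from 1 probe per region (10, 15 and 31, of 207 probes tested), from the authors' deposited table, which holds 123 of the tested probes (22 in 2abc and 34 in the mean), from normexp background correction, added after seeing the data (33 in 2ac), and from the 2abc samples fitted alone (15). In the authors' deposited table the gene difference across the window was 0.021. Leaving out each line in turn gave 0 to 30 calls in 2ac, 7 to 51 in 2abc (13 without cl324.9 and 47 without cl6), 40 to 83 in the mean (47 without cl324.9, 47 without cl324.13) and 0 to 0 for the genotype difference. The same fits called 0.482% to 13.7% of all tested probes in 2ac, 0.822% to 19.7% in 2abc and 15% to 28.2% in the mean. The inside minus outside median then ranged from 0.04 to 0.12 in 2ac, -0.01 to 0.06 in 2abc and 0.04 to 0.08 in the mean, and the gene difference from 0.04 to 0.05. Moving the window by 5 Mb, 1 value per region, and leaving out the distal run, the last added after seeing the data, kept the median differences within 1 SD between lines. None of the 10 named probes of each comparison turned its sign. These probes were picked for the same sign in every line, so leaving out a line could not turn it. Of the 10 named probes of each comparison, testing every probe called 3 in 2ac, 7 in 2abc and 8 in the mean, and each genotype fitted alone called 8 in 2ac and 3 in 2abc. Normexp on mean signals was not run, because the array files used here give median signals. Of the 429 tested probes 143 were not well above background on every array.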
